A study of Mus musculus with 7 samples.

Results

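The genes described here are 10 genes of the pancreatic duct that were chosen by name. Cftr, Slc4a4, Car2 and Atp1b1 serve ion transport, and Pkhd1, Pkd1, Pkd2, Bicc1, Glis3 and Dcdc2a are genes of the primary cilium or of cystic disease. All 10 were found among the 27138 features of a table of read counts, and all 10 were among the 16910 features with enough reads to be tested. The counts came from polyadenylated RNA of the whole pancreas of mouse embryos at E15.5, with 4 WT and 3 cKO libraries, each from its own animal. WT embryos were mLINC00673fl/fl, that is, they had floxed alleles of 2610035D17Rik, the mouse counterpart of the long non-coding RNA LINC00673, and no Cre. The cKO embryos were Pdx1Cre, mLINC00673fl/fl. Pdx1-Cre acts in the pancreatic epithelium, whereas a dissected pancreas also holds mesenchyme, vessels, nerves and blood, in which the alleles stay intact. Because the WT embryos had no Cre, an effect of Cre cannot be told apart from an effect of the deletion.

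The duct epithelium secretes a fluid rich in bicarbonate. The sodium pump at the basolateral membrane sets the ion gradients, bicarbonate enters with sodium through a cotransporter or is made from carbon dioxide by carbonic anhydrase, and chloride and bicarbonate leave through channels and exchangers at the apical membrane. Duct cells also carry a primary cilium, a single sensory organelle whose membrane holds the polycystins and fibrocystin. Loss of genes of that organelle is known to give cysts in kidney tubules, bile ducts and pancreatic ducts.

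Each library held 14883918 to 17767373 counts. The targeted RNA, 2610035D17Rik, stood at 8.64 ± 0.497 CPM (counts scaled to a common library total with TMM factors; mean ± SD, n = 4) in WT and 2.55 ± 0.725 CPM (n = 3) in cKO, and every cKO library lay below every WT library. Its fold change was 0.295 (95% interval 0.211 to 0.413), with an adjusted p of 0.0902 in edgeR's quasi-likelihood test. Epithelial markers (7 of 7 tested) summed to 2812 to 3350 CPM in WT and 2932 to 3259 CPM in cKO, and duct markers (8 of 8) to 1762 to 2398 CPM and 1956 to 2267 CPM. Kidney markers, which could travel with cyst genes in an embryo's dissection, summed to at most 13.7 CPM in any library. A pair of libraries from different groups, WT replicate 4 and cKO replicate 1, had the highest summed liver, erythroid and acinar markers. The gap was wide for liver, at 1253 and 1944 CPM beside at most 419 CPM elsewhere. It was smaller for erythroid markers (2319 and 2821 CPM beside at most 1841) and acinar markers (54470.5 and 45294.5 CPM beside at most 37922.8). In long genes, cKO replicate 1 also stood apart. The differences of these libraries touch the genes described here and are taken up with them.

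The 10 genes covered a wide range of levels. In CPM per kilobase of exon, the WT levels were 61.8 ± 5.05 for Atp1b1, 23.6 ± 3.53 for Bicc1 and 12.7 ± 1.17 for Pkd2 (SD, n = 4). Pkd1 stood at 6.21 ± 1.06 on the same scale, Car2 at 5.11 ± 5.68 and Dcdc2a at 4.24 ± 0.60. The lowest levels were those of Glis3 at 2.99 ± 0.48, Slc4a4 at 2.09 ± 0.20, Pkhd1 at 1.54 ± 0.55 and Cftr at 0.21 ± 0.03. Thus the pump subunit and the RNA-binding protein led, and the apical anion channel came last. The ranges over the WT libraries overlapped for the neighbours Pkd1 and Car2, Car2 and Dcdc2a, and Slc4a4 and Pkhd1, so these pairs have no order beyond the spread between animals. In bulk RNA a low level per tissue can come from few cells or from little RNA per cell, and these cannot be told apart.

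**Figure D1:**
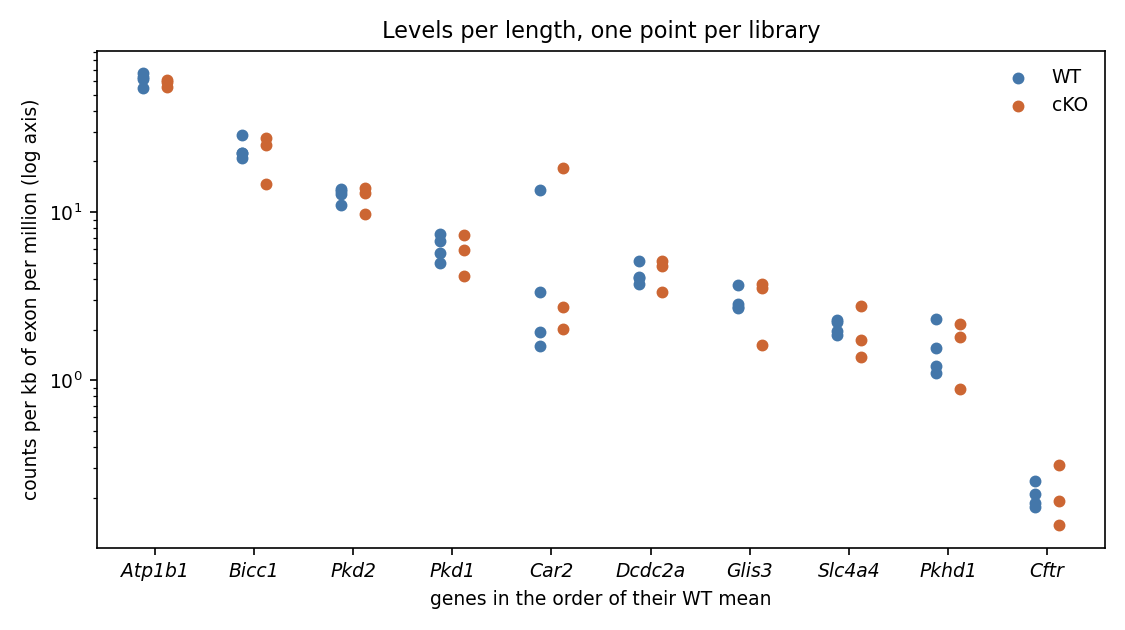
Level of each of the 10 genes in CPM per kilobase of exon (log axis), 1 point for each of the 4 WT and 3 cKO libraries. Atp1b1 and Bicc1 are highest and Cftr lowest, and Car2 has the widest scatter among libraries of one group.

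The comparison of cKO with WT asked whether loss of the RNA in the epithelium altered these duct genes. In edgeR, 0 of the 10 genes passed an adjusted p of 0.05, 0 had an unadjusted p under 0.05, and 0 passed with limma-voom or DESeq2, where Car2 received no adjusted p. The background was low as well, since the test called 1 of 16910 features, 0.00591%, and 234 had an unadjusted p under 0.05. In 0 of the 10 did the groups fail to overlap, against 2.73% of the tested features. Fitted changes were above 0 for 4 genes and below 0 for 6, with a median log2 fold change of −0.04, beside −0.01 over all tested features. The adjusted p was 1.00 for each of the 10 genes. The intervals show how precisely each change was fitted, and their width differed widely from gene to gene. They are not adjusted for the number of tests, so they do not give how large a change the adjusted test could have missed. The targeted RNA, with a fold change of 0.295, was not called either (adjusted p of 0.0902 in edgeR).

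**Figure D2:**
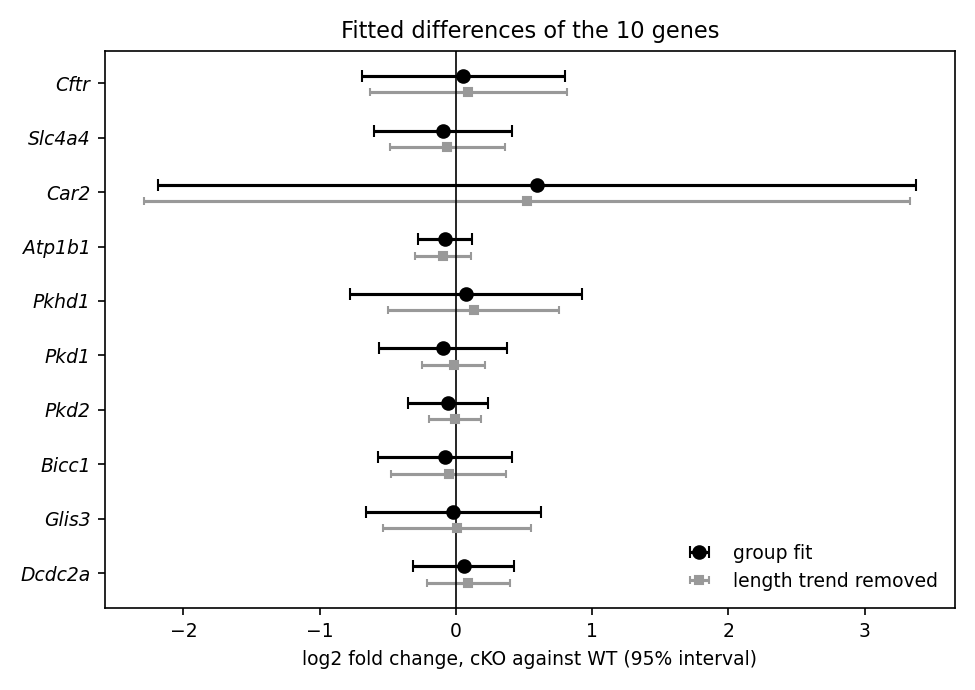
Log2 fold change of cKO against WT for each of the 10 genes, with the 95% interval from edgeR's quasi-likelihood fit (black circles). Grey squares give the same with each library's trend on exon length removed, as described below. All 10 intervals of the main fit (circles) include 0, from the narrow one of Atp1b1 (−0.28 to 0.12) to the wide one of Car2 (−2.19 to 3.38).

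Among the transport genes, Atp1b1, which encodes the beta 1 subunit of the sodium pump, gave the most precise measurement. It stood at 191, 206, 169 and 195 CPM in WT replicates 1 to 4 and at 171, 183 and 187 CPM in cKO replicates 1 to 3. All 3 cKO libraries lay within the WT range. The log2 fold change was −0.08 (SE 0.088) and its 95% interval was a fold of 0.825 to 1.09. Of its exon bases, 18.7% overlap Nme7 on the opposite strand, and reads of the overlap cannot be assigned because the libraries kept no strand.

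Slc4a4 encodes the sodium bicarbonate cotransporter that loads duct cells with bicarbonate. Its WT libraries stood at 24.1, 20.2, 21.3 and 24.7 CPM and its cKO libraries at 14.8, 18.6 and 30.0 CPM. The cKO group held both the lowest and the highest library, with an SD of 7.93 CPM against 2.17 CPM in WT. The log2 fold change was −0.09 (95% interval −0.60 to 0.41; exact two-sided permutation p = 0.629). An exact test of 4 against 3 libraries cannot go below 0.0286.

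Cftr, the apical chloride and bicarbonate channel whose loss causes cystic fibrosis, was barely measured. The WT libraries held 36, 23, 25 and 23 reads and the cKO libraries 25, 18 and 44. That gave 1.59 ± 0.255 CPM in WT and 1.66 ± 0.699 CPM in cKO, with groups that overlapped fully. The log2 fold change was 0.06 (interval −0.69 to 0.80). How much of this width came from the low read counts was not tested.

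Car2, a cytosolic carbonic anhydrase that makes bicarbonate from carbon dioxide, varied most. WT replicates 1 to 3 stood at 4.69, 8.09 and 3.87 CPM, but WT replicate 4 reached 32.8 CPM. In cKO, replicate 1 reached 44.2 CPM and replicates 2 and 3 stood at 4.85 and 6.62 CPM. Thus 1 library of each group was high and the others were low, with a ratio of 11.4 between the highest and the lowest library. The log2 fold change of 0.60 had an interval from −2.19 to 3.38 and turned with single libraries. It was −1.08 without cKO replicate 1, 1.72 without WT replicate 4 and 0.05 without both.

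The same 2 libraries were the highest for markers of liver and erythroid cells, which could reach the sample. This held for 10 of 10 liver markers and 8 of 8 tested erythroid markers, against 12.4% of the tested features. Among markers of the pancreas itself, it held for 5 of 8 acinar and 3 of 8 duct markers. Liver markers summed to 305, 419, 338 and 1253 CPM in WT and to 1944, 392 and 378 CPM in cKO. Ttr, the liver marker of highest mean, differed less, from 238 to 325 CPM in WT and from 246 to 358 CPM in cKO. Hba-a1, an adult alpha globin, stood at 472 to 1040 CPM and 586 to 1313 CPM. Albumin (Alb) reached 354 CPM in WT replicate 4, 688 CPM in cKO replicate 1, and 8.58 to 31.0 CPM in the other libraries. Slc4a1, the anion exchanger of red blood cells, reached 80.4 and 90.6 CPM in those libraries and 7.27 to 16.8 CPM elsewhere. Erythroid markers summed to 965 to 2319 CPM in WT and 1331 to 2821 CPM in cKO, while Car1, a carbonic anhydrase of mature red cells, was at most 0.473 CPM. Red cells and liver are both known to hold carbonic anhydrases. The part of these cells in the Car2 values was not tested.

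**Figure D3:**
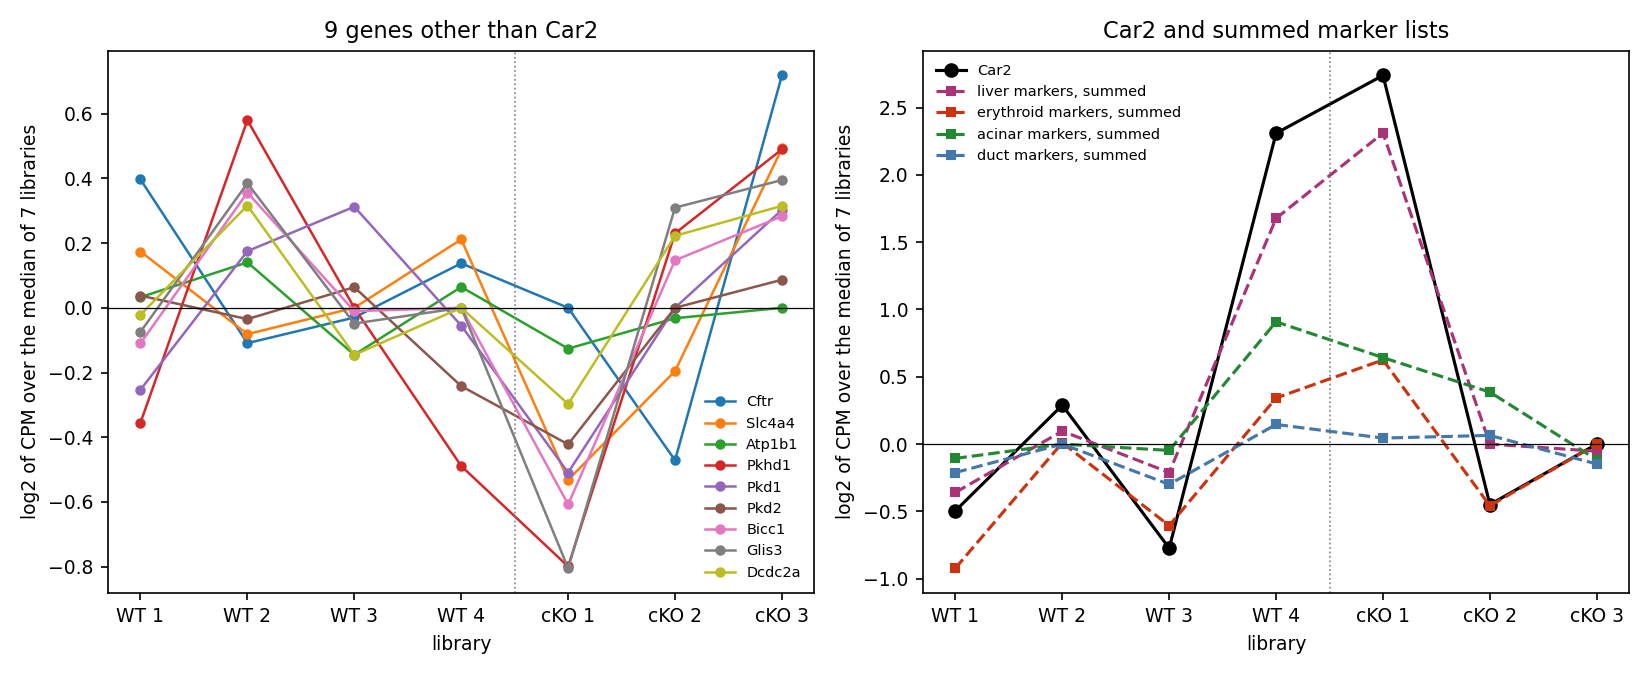
Log2 of CPM over the median of the 7 libraries, for the 9 genes other than Car2 (left) and for Car2 with 4 summed marker lists (right), with 1 point per library and lines that only join points of one gene or list. WT replicate 4 and cKO replicate 1 are the highest for Car2 and the liver sum, and cKO replicate 1 is the lowest for Slc4a4 and the 6 cilium and cyst genes.

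In the genes of the cilium the groups overlapped as well. Pkd1 and Pkd2 encode polycystin 1 and polycystin 2, the receptor-like protein and the cation channel that form a complex in the ciliary membrane and are mutated in dominant polycystic kidney disease. Pkd1 stood at 87.0, 117, 129 and 99.9 CPM in WT and 72.9, 104 and 128 CPM in cKO. Pkd2 stood at 136, 129, 139 and 112 CPM in WT and 98.9, 133 and 141 CPM in cKO. In both genes cKO replicate 1 was the lowest library, and the other cKO libraries fell within or just above the WT range. The log2 fold changes were −0.09 (interval −0.56 to 0.38) for Pkd1 and −0.06 (−0.35 to 0.24) for Pkd2. Per kilobase of exon, the ratio of Pkd2 to Pkd1 was 2.08 ± 0.397 in WT (n = 4) and 2.13 ± 0.225 in cKO (n = 3), with WT replicate 1 highest at 2.68. The size of this ratio depends on the length used. With the longest transcript as length, the mean WT levels were 24.7 for Pkd2 and 7.64 for Pkd1, beside 12.7 and 6.21 with the union of exons. For Pkd1, 3.98% of the exon bases overlap the opposite-strand gene Tsc2.

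Pkhd1 encodes fibrocystin, the membrane protein lost in recessive polycystic kidney disease with its bile duct malformations. It stood at 17.3, 33.0, 22.1 and 15.7 CPM in WT and 12.7, 25.9 and 31.0 CPM in cKO. Its values differed by more than a factor of 2 within each group, and the groups overlapped. The log2 fold change was 0.07 (interval −0.78 to 0.93; exact two-sided permutation p = 0.971).

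Dcdc2a encodes a doublecortin-domain protein of the ciliary axoneme, and its human counterpart is mutated in neonatal sclerosing cholangitis. It stood at 33.5, 42.4, 30.8 and 34.0 CPM in WT and 27.7, 39.7 and 42.3 CPM in cKO. The log2 fold change was 0.06 (interval −0.31 to 0.43), and 2 of 3 cKO libraries lay within the WT range.

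Bicc1, an RNA-binding protein whose loss gives cystic kidneys and dilated pancreatic ducts, stood at 155, 214, 166 and 167 CPM in WT. Of its exon bases, 4.69% overlap an opposite-strand gene. Its cKO libraries stood at 110, 185 and 204 CPM, so that replicate 1 lay below all others and replicates 2 and 3 inside the WT range. The log2 fold change was −0.08 (interval −0.57 to 0.41). Glis3, a Krüppel-like zinc finger factor of ducts and beta cells whose loss is known for neonatal diabetes and polycystic kidneys, was also lowest in cKO replicate 1. It stood at 23.8, 32.7, 24.2 and 25.1 CPM in WT and 14.3, 31.1 and 32.9 CPM in cKO, with a log2 fold change of −0.02 (interval −0.66 to 0.62). In WT, replicate 2 was the highest library for both.

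**Figure D4:**
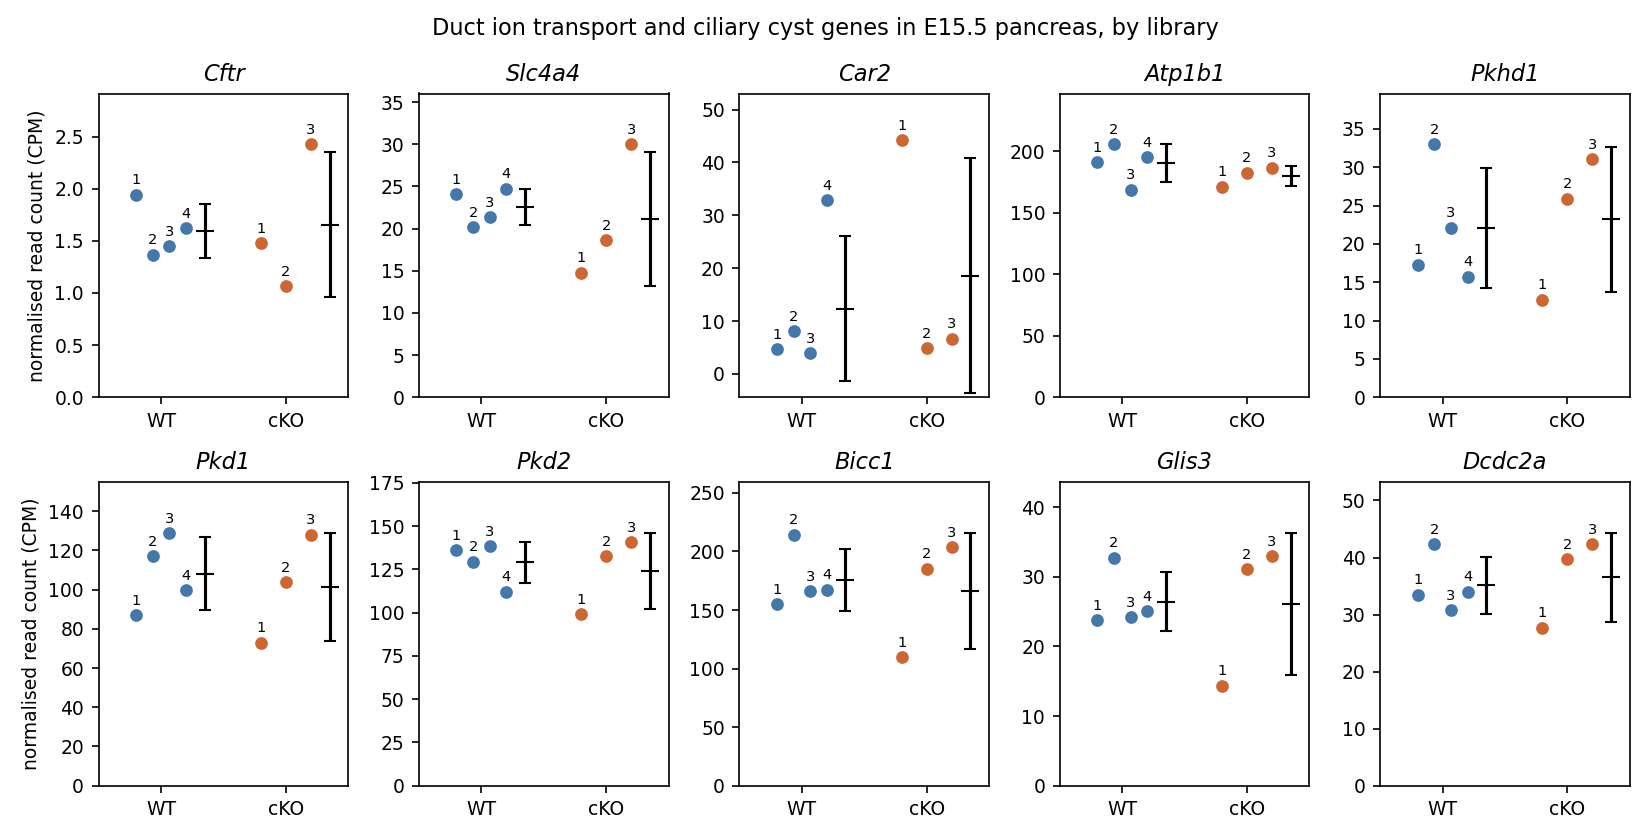
CPM of each of the 10 genes in each of the 7 libraries, 1 panel per gene, numbered by replicate, with the mean and SD of each group. The groups overlap in every panel, and cKO replicate 1 is the lowest point for Slc4a4 and for all 6 cilium and cyst genes.

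Many of the 10 genes shared low values in cKO replicate 1. It was the lowest library for 7 of them, Slc4a4 and all 6 cilium and cyst genes, whereas it was the lowest for 25.7% of all tested features. Relative to the median of the other 6 libraries it held 51.1% of the Glis3 level, 52.9% of Pkhd1, 62.3% of Bicc1, 65.0% of Slc4a4 and 66.0% of Pkd1. Pkd2 stood at 73.7% and Dcdc2a at 75.1%, while Atp1b1 at 90.6% and Cftr at 96.2% were near the others. Leaving out this library turned the sign of the fitted change in Slc4a4, Car2, Pkd1, Pkd2, Bicc1 and Glis3, and the other replicates of its group then gave log2 fold changes of 0.12, −1.08, 0.10, 0.09, 0.15 and 0.28. The sign also turned without WT replicate 2 in Bicc1 and Glis3 (0.030 and 0.10) and without WT replicate 3 in Pkd1 (0.0025), so it was not fixed beyond single animals.

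Transcript length moved with the same library. Split into 4 classes of equal size by exon length, 9.85% of the shortest tested features (up to 2404 bases) were lowest in cKO replicate 1, then 14.3%, 28.2% and, among the longest (6453 bases and more), 51.0%. Most of the 10 genes are long, from 2422 exon bases in Car2 and 3081 in Atp1b1 to 14310 in Pkhd1 and 17415 in Pkd1, and 8 have at least 7000 exon bases. Among all tested features of that length, cKO replicate 1 was the lowest library for 52.7% of 3555, and among the 8 members for 7. These features had a median log2 ratio of cKO replicate 1 to the median of the others of −0.19, while the 8 members had a median of −0.60. A ratio below that of Glis3 was found in 1.66% of these long features, below that of Pkhd1 in 2.14%, and below that of Bicc1 in 6.75%. For Slc4a4 and Pkd1 the shares were 10.1% and 10.6%, for Pkd2 22.3%, for Dcdc2a 25.7% and for Cftr 69.0%. The limit of 7000 bases and the split were chosen after the values were seen.

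**Figure D5:**
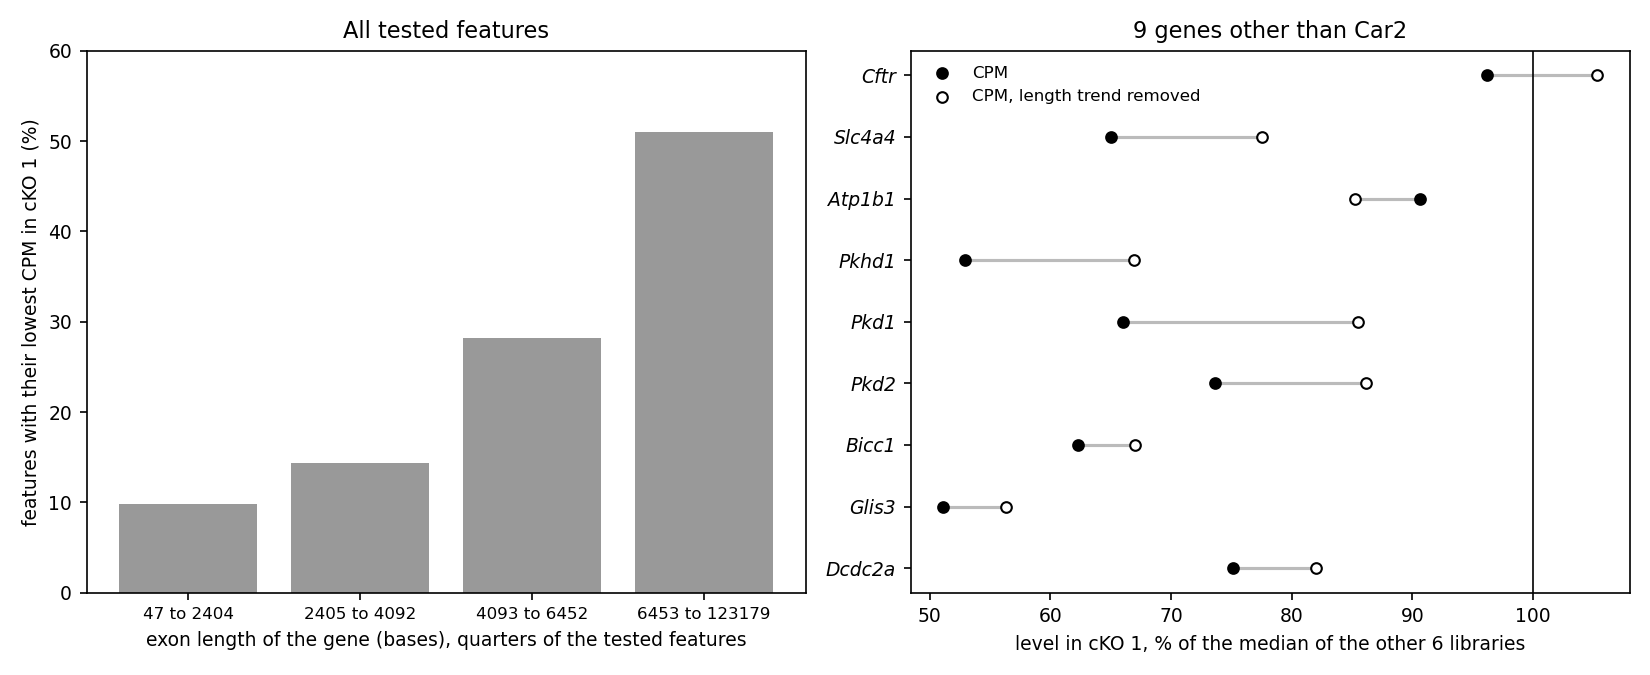
Left, percentage of tested features with their lowest CPM in cKO replicate 1, in 4 classes of equal size by exon length. Right, level in cKO replicate 1 as a percentage of the median of the other 6 libraries for the 9 genes other than Car2, as CPM (filled) and with each library's length trend removed (open). The bars rise from 9.85% to 51.0%, and Glis3, Pkhd1 and Bicc1 are the lowest 3 with the trend removed.

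When each library's trend on length was removed from the counts before the fit, cKO replicate 1 was the lowest library for 22.6% of 16656 features and for 6 of the 10 genes. Pkd1 and Dcdc2a were no longer among them, while Atp1b1 joined them, with 85.3% of the others' median in place of 90.6%. Its level then stood at 56.3% of the others' median for Glis3, 66.9% for Pkhd1, 67.0% for Bicc1 and 77.5% for Slc4a4. Pkd1 at 85.5% and Pkd2 at 86.2% came closer to the others. The interval of Pkd1 narrowed to −0.25 to 0.21 and that of Pkd2 to −0.20 to 0.18, and 0 of the 10 genes passed the test. The distance of cKO replicate 1 thus shrank most in Pkd1 and little in Glis3 and Bicc1. What made long transcripts low in this library was not tested.

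The other genes of these pathways were taken from 11 lists, without the 10 members. Of 151 genes, 149 were in the table and 133 were tested, and 0 passed in either direction in edgeR, limma-voom or DESeq2. There were 2 with an unadjusted p under 0.05, and 49 were fitted higher and 84 lower in cKO, with a median log2 fold change of −0.05. Over all tested features 46.0% were fitted higher. The groups did not overlap in 4 (3.01%), close to the 2.73% of all tested features, and cKO replicate 1 was the lowest library in 54 (40.6%), beside 25.7%. Over all tested features this share rose with exon length, from 9.85% in the shortest class to 51.0% in the longest. The pathway genes were not matched for length, neither here nor in the counts of single lists below.

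In the list for chloride and bicarbonate secretion, 0 of 20 tested genes passed, with 5 fitted higher and 15 lower and a median of −0.06, which ran from −0.075 to −0.033 with 1 library left out. Slc12a2, which brings chloride into the cell with sodium and potassium, stood at 61.8 to 93.2 CPM in WT and 51.8 to 77.9 CPM in cKO. The scaffold protein gene Slc9a3r1 stood at 127 ± 10.4 and 129 ± 15.9 CPM. Slc26a3, Slc9a3, Kcnj16 and Car4, genes of apical transport or of potassium recycling, had too few reads to test. Slc26a6, also on this list, was not found among the features.

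In the Slc4 family of bicarbonate transporters, 0 of 6 passed, with 2 fitted higher and 4 lower. Slc4a2, the basolateral anion exchanger, averaged 89.5 ± 1.15 CPM in WT against 86.2 ± 4.79 in cKO. Among the carbonic anhydrases, 0 of 10 passed, with 7 fitted higher, 3 lower and a median of 0.16, which turned to −0.03 without cKO replicate 1. Car9, an enzyme of the cell surface that responds to low oxygen, averaged 141 ± 16.9 CPM in WT against 154 ± 24.4 in cKO.

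Of the 11 tested sodium pump subunits and regulators, 0 passed and the median was −0.01, or −0.25 without cKO replicate 1. Atp1b3, the subunit most like Atp1b1 in role, stood at 105 ± 1.24 and 105 ± 3.00 CPM. Fxyd3, a small membrane regulator of the pump, stood at 9.01, 17.6, 17.2 and 20.9 CPM in WT and 7.97, 5.50 and 1.10 CPM in cKO. Every cKO library lay below every WT library, with a log2 difference of −1.74 (interval −3.20 to −0.27), but the adjusted p in edgeR was 1.00 (unadjusted 0.0269).

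The lists for cystic disease and the cilium gave the same picture. Among 14 other polycystic kidney and liver disease genes 0 passed, with 5 fitted higher and 9 lower (median −0.03, or −0.0047 without cKO replicate 1 and −0.07 without cKO replicate 2). Ganab, which trims glycans on polycystin 1 in the endoplasmic reticulum, averaged 353 CPM in WT against 341 in cKO, and Tsc2 100 against 94.0 CPM. Among 6 relatives of the polycystins and fibrocystin 0 passed. Of 19 nephronophthisis genes, which encode the transition zone at the base of the cilium, 0 passed, with 2 fitted higher and 17 lower, a median of −0.08, and 13 lowest in cKO replicate 1. Without that library the median of this list was 0.03, and with 1 library left out it ran from −0.15 to 0.03. Glis2, its zinc finger factor, stood at 87.2 and 86.6 CPM.

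Of 24 intraflagellar transport genes, which carry cargo along the cilium, 0 passed, with 9 fitted higher, 15 lower and a median of −0.05, which was −0.0041 without cKO replicate 1 and −0.12 without cKO replicate 3. Ift81, a subunit that binds tubulin cargo, stood at 28.0 ± 1.19 CPM in WT and 24.8 ± 0.699 CPM in cKO, groups that did not overlap (unadjusted p = 0.0674 in edgeR). The 9 BBSome genes had a median of 0.04 and the 6 tested genes of motile cilia one of −0.09, and 0 passed in either. With 1 library left out these medians ran from −0.042 to 0.022 and from −0.17 to −0.037. Foxj1, the factor of motile cilia, stood at 4.40 ± 0.245 and 3.42 ± 0.456 CPM, again without overlap between the groups. Of the 6 tested genes of motile cilia, 0 had an unadjusted p under 0.05 in edgeR. Over all tested features the groups did not overlap in 2.73%.

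Among 17 transcription factors of ducts and cilia, 0 passed, with 4 fitted higher, 13 lower, a median of −0.09 and 12 lowest in cKO replicate 1. Without that library the median was 0.04, without WT replicate 2 it was −0.03, and without cKO replicates 2 or 3 it was −0.15 or −0.18. Onecut1, a duct factor known to act upstream of cilium genes in the pancreas, was named after its values were seen. It stood at 29.3, 40.1, 28.4 and 25.8 CPM in WT and 10.1, 37.1 and 40.3 CPM in cKO, so that cKO replicate 1 held 30.4% of the median of the others. Rfx3, a factor of ciliary genes chosen in the same way, held 62.1% there, at 19.8 CPM. Glis1, a relative of Glis3, stood at 0.602 ± 0.302 CPM in WT and 1.29 ± 0.252 CPM in cKO (unadjusted p = 0.0256, adjusted p = 1.00 in edgeR), on few reads.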

How the data were processed

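Raw counts of reads over features, not normalized, were deposited by the authors as 1 table for all 7 libraries, and each of its sample columns was used. Per the submitters' processing notes, HISAT2, StringTie, featureCounts and the build mm39 were used, with settings not given in the sources used here. Per the labels' protocols, RNA was selected on poly-T beads and no step kept the strand. In the file header the column of WT replicate 4 carries another number after WT than the other WT columns, and its meaning is not given.

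The main test was that of edgeR 4.0.16 (R 4.3.3) on the counts, with filterByExpr, TMM factors (0.952 to 1.04), robust quasi-likelihood fits on the group alone and Benjamini-Hochberg adjustment over 16910 features, and a feature was called at an adjusted p under 0.05. SEs and 95% intervals come from the same fits, in which the biological coefficient of variation was 0.218. For single genes the 35 divisions of the 7 libraries gave an exact permutation test, two-sided. The code was tested on simulated counts. Chi-square values per degree of freedom of 12.0 to 55.6 between libraries were above sampling noise, so each library counted as 1 replicate. Symbols, exon lengths (union of exons) and overlaps came from GENCODE M21 on GRCm38, a build other than that of the counts, and 26764 identifiers had a symbol. The log2 ratios of cKO replicate 1 used a pseudocount of 0.5 CPM. For the length trend, the log2 CPM of each gene was first centred on its mean over the 7 libraries. A lowess of these deviations on log exon length, with a span of 0.3, was fitted for each library and entered as an offset.

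Alternatives were DESeq2 1.42.0 and its size factors, library totals, scaling to epithelial genes, other filters, limma-voom 3.58.1, the replicate block and each library left out. The members and lists were chosen with earlier results of these data known, and no set test was run. Named genes were the 10 members, 2 genes by smallest p and 2 by highest level per length from each list, the most abundant marker of each cell type, and the targeted gene. Slc12a2, Slc26a3, Slc9a3, Kcnj16, Car4, Car1, Alb, Sctr, Onecut1 and Rfx3 are named outside this rule and were chosen after their values were seen. Slc26a6 is named only as absent from the features. Those that add no value to a comparison are not printed. The results of some genes are not reported here, although they are included in the counts and medians of their lists.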

Additional observations from a re-analysis of the deposited data

Results flagged for a closer look

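In 4 of the 23 sets of 4 WT values that were examined, 1 WT library lay far from the other three, by the ratio of its gap to the nearest value over the whole range (limit 0.829), and chance gives about 1 such case in 20. For Car2 the ratio was 0.854, with WT replicate 4 at 32.8 CPM against 3.87 to 8.09 CPM. For the summed liver markers it was 0.880, and for the summed acinar markers 0.925, both with WT replicate 4 high. For Glis3 it was 0.859, with WT replicate 2 at 32.7 CPM against 23.8 to 25.1 CPM.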

How the results depend on the processing

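For the 10 genes, 0 calls were made under each alternative, and the lowest adjusted p in 180 recomputed values was 0.966. The fit without WT replicate 4 and the fit of the 6 libraries without the replicate block are the same fit. It is counted under both names in these values and in the list medians below. The 133 other pathway genes gave 0 calls as well. Over all features 1 was called, against 0 after a filter at 1 CPM, by library totals, by the size factors of DESeq2 and with the length trend removed, 4 with no filter, 5 relative to epithelial genes, 13 with DESeq2 and 0 to 3 with 1 library left out. The replicate block on 6 libraries called 13, against 0 in the same libraries without it. Same-numbered libraries deviated together with correlations of 0.284, 0.419 and 0.0597, and 2 of 3 numbers correlated best with their own. These values do not exclude that the numbers mark pairs. The labels do not state that they do, so the block was kept as an alternative. The sign of the log2 fold change of Pkhd1 turned with the block (−0.10) and without it (−0.058), that of Cftr with limma-voom (−0.0093), and that of Glis3 with the length trend removed (0.0086). Without WT replicate 4 and cKO replicate 1, an alternative chosen after seeing the data, as were the length trend and the 6 libraries, the value was 0.16 for Slc4a4, 0.063 for Pkd1, 0.022 for Pkd2, 0.12 for Bicc1 and 0.25 for Glis3. With 1 library left out, values ran from −0.33 to 0.29 for Cftr, −0.43 to 0.12 for Slc4a4, −1.08 to 1.72 for Car2, −0.19 to 0.37 for Pkhd1, −0.29 to 0.10 for Pkd1, −0.16 to 0.087 for Pkd2, −0.25 to 0.15 for Bicc1, −0.22 to 0.28 for Glis3 and −0.062 to 0.23 for Dcdc2a. Atp1b1 kept its sign there (−0.13 to −0.04). The cause of these turns was not tested. Of the medians of the 11 lists, 29 of 198 recomputed values moved beyond the spread between WT libraries. Scalings moved the median of all features by at most 0.014. With the longest transcript as length, 8 of 10 levels moved by over 1 SD in the same order of genes, among them Pkd2 at 24.7. Cftr rested on 18 to 44 reads per library.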

Other observations

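Among the genes of duct secretion, Sctr, the receptor for secretin, had 3.13, 0.42, 3.70 and 1.62 CPM in WT against 4.07, 0.71 and 0.94 CPM in cKO. The summed markers of neurons and Schwann cells stood at 585, 98, 490 and 284 CPM in WT against 785, 133 and 147 CPM in cKO, in the same order of libraries except for WT replicates 1 and 3. Sctr was picked after its values were seen, and the part of nerve cells in them was not tested.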
